A study of Rattus norvegicus with 9 samples.

Results

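Sgk1, Tsc22d3, Zbtb16, Cdkn1a, Errfi1 and Ddit4 are 6 genes that glucocorticoid hormones are known to induce. They were chosen by name and not by their values, and they are 6 of the 37209 genes in the count table of this rat cortex experiment. All 6 had enough reads to be tested, among 16837 genes tested in all. RNA had been sequenced from the frontal cortex, which the study calls the prefrontal cortex (PFC), of 9 male Wistar rats aged 14 weeks, after behavioural tests, with 3 rats in each of 3 groups. The Control rats (A1, A2 and A6) had grown up undisturbed with their mothers until weaning. The MS rats (B3, B4 and B6) underwent maternal separation (MS), that is 4 h apart from the mother on each day from postnatal day (PND) 1 to PND 21. The MS+EA rats (C3, C10 and C16) underwent the same separation and were given electroacupuncture (EA), a weak current through needles at 2 points of the head, on alternate days between PND 61 and PND 81. By the labels, rats of the Control and MS groups were anaesthetised as well, so anaesthesia was common to the groups. The study also had a sham EA group, but by its methods only the other 3 groups were sequenced. No comparison here includes sham-treated rats. Nothing in the labels says which rats were littermates, so the p-values measure the spread between these 9 animals.

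Corticosterone, the main glucocorticoid of the rat, enters cells and binds the glucocorticoid receptor, which moves to the nucleus and switches genes on by binding DNA at glucocorticoid response elements. The hormone follows a daily rhythm and rises within minutes of stress, and transcripts such as these rise and fall with it, so that their level in a tissue is often read as a trace of recent hormone exposure. The members act in different places. Tsc22d3 (GILZ) and Zbtb16 (PLZF) are transcriptional regulators, Sgk1 is a kinase that controls ion channels and transporters, Errfi1 (Mig6) restrains EGF receptor signalling, Ddit4 (REDD1) restrains the growth kinase mTORC1, and Cdkn1a (p21) blocks cyclin-dependent kinases. Other signals also drive them, among them p53 for Cdkn1a, low oxygen and amino acid stress for Ddit4, and growth factors for Errfi1.

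To show what lies before the start sites of these genes, promoter sequences were taken from RefSeq, build GRCr8, which is a later build than the Rnor_6.0 of the counts. Each window runs from 250 bases before the start to 50 after it. RefSeq gave 9 windows for 5 of the 6 members, 3 each for Sgk1 and Tsc22d3 and 1 each for Cdkn1a, Errfi1 and Ddit4. The following 3 are shown because they hold a known element, and the element is in capitals. In Sgk1 (the third of its windows, chr1:24804782-24805081, minus strand) and Errfi1 (chr5:166606591-166606890, plus strand) it is the TATA box, TATAAA, 33 and 35 bases before the start. In Cdkn1a (chr20:7150682-7150981, plus strand) it is a decamer of the p53 type, 201 bases before the start.
Sgk1: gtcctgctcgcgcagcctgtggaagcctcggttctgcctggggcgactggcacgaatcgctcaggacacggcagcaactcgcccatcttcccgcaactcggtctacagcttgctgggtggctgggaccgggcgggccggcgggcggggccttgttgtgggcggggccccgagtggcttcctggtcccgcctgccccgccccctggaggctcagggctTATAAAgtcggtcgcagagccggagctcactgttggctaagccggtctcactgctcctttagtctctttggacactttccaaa
Errfi1: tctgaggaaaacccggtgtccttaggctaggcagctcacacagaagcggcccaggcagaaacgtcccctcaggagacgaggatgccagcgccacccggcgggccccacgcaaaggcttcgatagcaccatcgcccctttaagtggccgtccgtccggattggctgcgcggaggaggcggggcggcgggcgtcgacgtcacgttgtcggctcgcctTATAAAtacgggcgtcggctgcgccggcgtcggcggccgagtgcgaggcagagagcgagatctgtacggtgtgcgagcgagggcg
Cdkn1a: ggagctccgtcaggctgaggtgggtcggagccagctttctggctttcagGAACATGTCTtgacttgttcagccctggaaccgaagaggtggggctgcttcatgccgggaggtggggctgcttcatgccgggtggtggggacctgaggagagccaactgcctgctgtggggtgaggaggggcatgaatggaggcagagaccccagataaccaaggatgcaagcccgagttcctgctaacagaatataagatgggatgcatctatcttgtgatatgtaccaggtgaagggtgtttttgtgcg
The full palindromic glucocorticoid response element was in 0 of the 9 windows and in 5 of all 33469 promoter windows, or 0.0149%. Its shorter part TGTTCT, like the other motifs searched on both strands unless stated, was in 0 of 9 windows and in 20.7% of all windows. The same was true of the E-box CACGTG (0 of 9, 6.42% of all windows), the cAMP response element TGACGTCA (0 of 9, 1.83%) and the D-box TTATGTAA (0 of 9, 0.893%). The TATA box, searched on the strand of the gene from 40 to 20 bases before the start, was in 2 of 9 windows and in 1.37% of all windows. The first Sgk1 window and the third Tsc22d3 window also hold TATAAA on that strand, more than 40 bases before the start, and were not counted. The p53 decamer, searched on both strands, was in 1 of 9 and in 7.98% of all. These matches describe the letters in the windows only. The search for these last 2 motifs was added after the windows had been seen.

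Levels are given as CPM, the counts of a gene per 1000000 counts of its library, with library sizes scaled by the TMM method. Totals per rat ranged from 12479905 to 19007907 counts, and the 3 MS+EA libraries were the shallowest. The lowest count of any member in any rat was 72, for Cdkn1a in C10, so no member was near the limit of detection, taken as 3 counts. Groups were compared with the quasi-likelihood F test of edgeR in 1 model of all 9 rats, and p-values were adjusted by Benjamini-Hochberg for the 16837 genes. A gene was called at an adjusted p under 0.05 with a fold change above 1.5 in either direction. In bulk tissue, fewer cells that express a gene and less RNA per cell cannot be told apart. The labelled tissue was checked with 6 markers of cortical excitatory neurons, which were all detected in every rat, at summed levels of 3860 to 5142 CPM. Markers of striatal neurons were present in every rat at summed levels of 233 to 280 CPM.

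No member was called in any of the 3 comparisons. Between MS and Control rats 0 of the 6 were called, against 0.0238% of all genes tested, and 0 of 6 had an unadjusted p under 0.05, against 10.6% of all genes. In the MS+EA to MS comparison 0 of 6 were called, against 0.0178% of all genes, and 1 of 6, Cdkn1a, had an unadjusted p under 0.05, against 12.4%. From Control to MS+EA rats 0 of 6 were called, against 1.37% of all genes, and 1 of 6, again Cdkn1a, had an unadjusted p under 0.05, against 22.5%. DESeq2 called 0 members between MS and Control rats, 0 between MS+EA and MS rats, and 1, Cdkn1a, between MS+EA and Control rats. Between MS+EA and MS rats it gave no adjusted p for Cdkn1a or Ddit4, so it could call neither. Limma-trend called 0 members in each comparison. Over all 16837 genes tested, DESeq2 called 70, 6 and 296 genes in these 3 comparisons, and limma-trend called 3, 3 and 228. The median log2 fold change of the members was -0.21 between MS and Control, -0.04 between MS+EA and MS and -0.31 between MS+EA and Control rats, where that of all genes tested was -0.00, 0.00 and 0.01. Without Control rat A6, described next, edgeR called 0 members in each comparison, and the medians were 0.05, -0.03 and 0.02. The comparisons share their groups, so these values are not independent of one another.

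**Figure D1:**
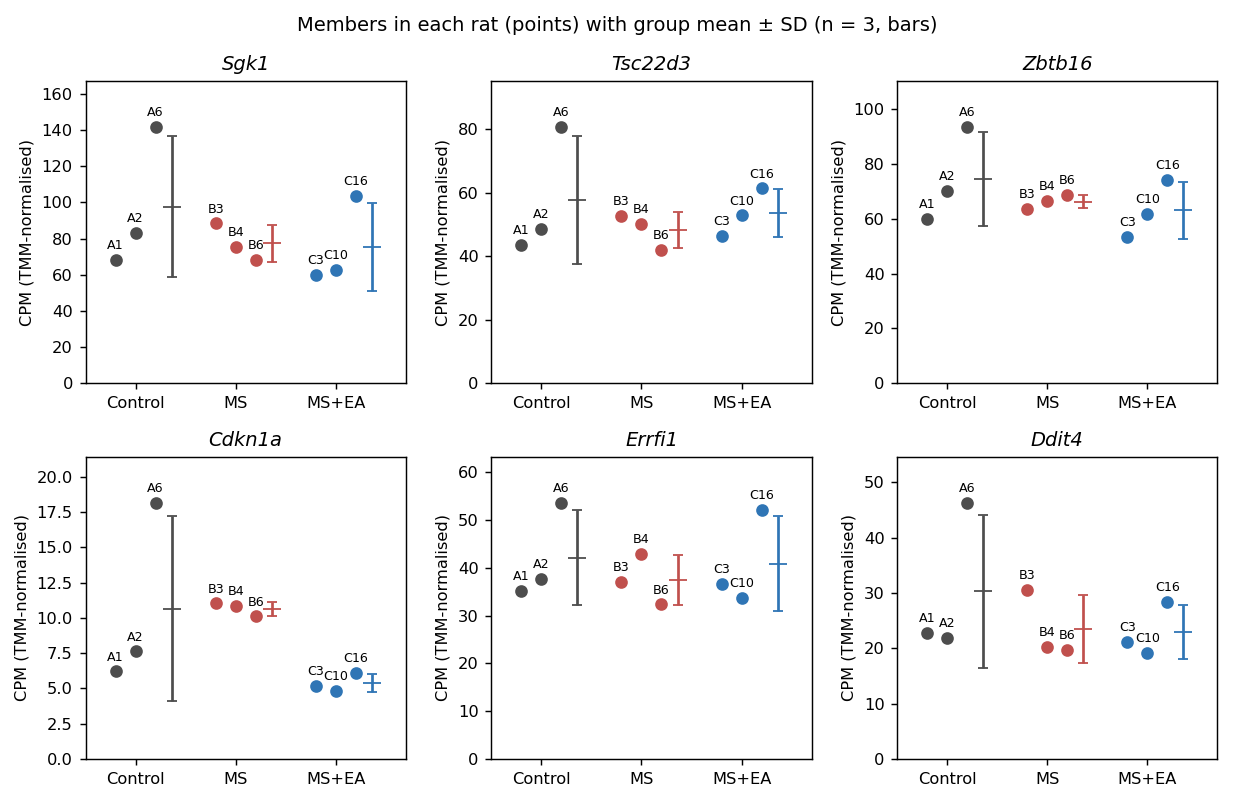
Level of each member in each of the 9 rats, in CPM, by group, with the bar marking the group mean and the whiskers the SD of 3 rats. Control rat A6 is the highest of the 9 rats for all 6 members, and for Cdkn1a the 3 MS+EA rats, at 4.82 to 6.12 CPM, lie below the MS rats, at 10.1 to 11.02 CPM.

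One Control rat stood out. For all 6 members the highest of the 9 rats was A6, which was the highest for 10.9% of all genes tested. Its level over the mean of A1 and A2 was 2.63-fold for Cdkn1a, 2.08-fold for Ddit4, 1.87-fold for Sgk1, 1.75-fold for Tsc22d3, 1.47-fold for Errfi1 and 1.44-fold for Zbtb16. Among the 15274 genes with a mean of at least 1 CPM, only 0.288% had a ratio as high as that of Cdkn1a, and 4.69% one as high as that of Zbtb16. Of 35 other glucocorticoid-induced genes that were tested, 19 were highest in A6. Per1, a clock gene that the hormone also induces directly, was at 80.2 and 101 CPM in A1 and A2 and at 170 CPM in A6. Nfkbia, which encodes an inhibitor of NF-kappaB, was at 17.8 and 19.8 CPM in A1 and A2 and at 48.8 CPM in A6. Fkbp5, the co-chaperone of the receptor that is a standard readout of glucocorticoid exposure, was at 31.7 and 29.6 CPM in A1 and A2 and at 41.3 CPM in A6. Clock genes that peak with Per were also high in A6, with a summed level of 1207 CPM against 961 and 972 CPM in the other Control rats. Mature oligodendrocyte markers were lower, with 2177 CPM summed over 9 genes against 3332 and 2834 CPM, and immediate early genes were at 813 CPM against 524 and 948 CPM. Endothelial markers, at 245 CPM against 254 and 220 CPM, and microglial markers, at 322 CPM against 338 and 305 CPM, lay between the other Control rats. The part of any of these in the members' levels was not tested. Because the direction of several comparisons rests on A6, each is given below with and without it.

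The transcriptional regulators are described first. Tsc22d3 encodes GILZ, a leucine zipper protein that carries part of the anti-inflammatory action of glucocorticoids. It was at 43.5, 48.7 and 80.7 CPM in Control rats A1, A2 and A6, at 52.6, 50.2 and 41.9 CPM in MS rats B3, B4 and B6, and at 46.3, 52.9 and 61.4 CPM in MS+EA rats C3, C10 and C16. A6 stood above the other 8 rats, and the ranges of the groups overlapped. Group means were 57.6 ± 20.2 CPM in Control, 48.2 ± 5.60 CPM in MS and 53.5 ± 7.53 CPM in MS+EA rats (SD, n = 3 each), and no neighbours in this order differed beyond their spread. MS rats differed from Control by a log2 fold change of -0.26 (SE 0.192, edgeR adjusted p = 0.676), with a 95% interval of the fold change from 0.628 to 1.12. It was 0.15 (SE 0.194, edgeR adjusted p = 0.792) for MS+EA against MS, with an interval from 0.829 to 1.48. Without A6 the difference between MS and Control changed sign, to 0.07, and that between MS+EA and Control went from -0.11 to 0.22. Of its relatives, Tsc22d2 was at 84.8, 105 and 113 CPM on average in Control, MS and MS+EA rats. Its log2 fold change of 0.41 between MS+EA and Control had an edgeR adjusted p of 0.0158 but did not reach the fold change of 1.5. With no fold change required, 910 of the 16837 genes tested passed the adjusted threshold in this comparison. Tsc22d1 had log2 fold changes of 0.06 for MS against Control and -0.06 for MS+EA against MS, and Tsc22d4 was too low to be tested.

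Zbtb16 encodes PLZF, a zinc finger repressor. Its levels were 59.8, 70.2 and 93.4 CPM in the Control rats, 63.6, 66.6 and 68.5 CPM in the MS rats and 53.2, 61.7 and 74.1 CPM in the MS+EA rats. The MS rats lay closer together than in the other groups, with a coefficient of variation (CV, the SD as a percentage of the mean) of 3.79% against 23.1% in Control and 16.7% in MS+EA rats, and they lay inside the range of both. Means were 74.5 ± 17.2, 66.2 ± 2.51 and 63.0 ± 10.5 CPM (SD, n = 3 each), and neighbours in this order did not differ beyond their spread. Log2 fold changes were -0.17 (SE 0.146, edgeR adjusted p = 0.726) for MS against Control, -0.07 (SE 0.148, adjusted p = 0.877) for MS+EA against MS and -0.24 (SE 0.147, adjusted p = 0.359) for MS+EA against Control. The 95% interval of the fold change between MS and Control ran from 0.715 to 1.11 and that between MS+EA and MS from 0.761 to 1.19, so both stayed within the 1.5-fold limit used here. Without A6 the values against Control were 0.03 for MS and -0.04 for MS+EA.

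Sgk1, a kinase whose transcript is among the most rapidly induced by corticosteroids, was measured at 68.4, 83.1 and 142 CPM in the Control rats, at 88.5, 75.6 and 68.1 CPM in the MS rats, and at 59.9, 62.7 and 104 CPM in the MS+EA rats. A6 and C16 were the highest rats of their groups, and the other 7 rats lay between 59.9 and 88.5 CPM. Means were 97.7 ± 38.8, 77.4 ± 10.3 and 75.4 ± 24.5 CPM (SD, n = 3 each), and the differences between groups were smaller than the SD of the Control rats. The log2 fold change was -0.33 (SE 0.247, edgeR adjusted p = 0.668) for MS against Control, -0.04 (SE 0.249, adjusted p = 0.967) for MS+EA against MS and -0.37 (SE 0.248, adjusted p = 0.400) for MS+EA against Control. Without A6 the values against Control were 0.03 and -0.00. The 95% intervals of the fold change with all rats were 0.547 to 1.15 for MS against Control and 0.669 to 1.41 for MS+EA against MS. Of 9 relatives, regulators and substrates of SGK kinases that were tested, 0 were called in any comparison, and at an unadjusted p under 0.05 there were 1 higher in MS than in Control, 0 between MS+EA and MS, and 2 higher in MS+EA than in Control rats. Sgk3, the paralogue on endosomes, was one of these, at 12.3, 13.6 and 15.9 CPM on average, with a log2 fold change of 0.37 and an edgeR adjusted p of 0.121 for MS+EA against Control. Rictor, a subunit of the mTORC2 complex that activates SGK1, was the other, at 0.20 with an adjusted p of 0.142. Pdpk1, the second activating kinase, was the 1 higher in MS than in Control rats, at 0.13 with an adjusted p of 0.461.

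Signalling inhibitors come next. Errfi1 encodes a scaffold that binds the EGF receptor and shuts it down. Its levels of 35.2, 37.7 and 53.6 CPM in the Control rats, 37.0, 43.0 and 32.3 CPM in the MS rats and 36.6, 33.6 and 52.1 CPM in the MS+EA rats placed A6 and C16 above the other 7. Means were 42.1 ± 9.99, 37.4 ± 5.32 and 40.8 ± 9.93 CPM (SD, n = 3 each) and did not differ beyond this spread. The log2 fold change was -0.17 (SE 0.182, edgeR adjusted p = 0.788) for MS against Control, with a 95% interval of the fold change from 0.676 to 1.17. For MS+EA against MS it was 0.12 (SE 0.184, edgeR adjusted p = 0.827), from 0.825 to 1.43, and for MS+EA against Control -0.05 (SE 0.183, adjusted p = 0.909), from 0.735 to 1.27. Leaving out A6 gave 0.04 for MS and 0.17 for MS+EA against Control, and leaving out C16 turned the value for MS+EA against MS to -0.09. Among 7 receptors and ligands of the EGF family that were tested, 0 were called in any comparison, and 1 had an unadjusted p under 0.05, in the MS to Control comparison alone. This was Tgfa, a ligand of the EGF receptor, at 21.1, 14.5 and 18.0 CPM on average, with a log2 fold change of -0.53 (edgeR adjusted p = 0.191). The 9 feedback inhibitors of the ERK pathway included 0 called genes. At an unadjusted p under 0.05, 1 was lower in MS than in Control rats, 1 lower in MS+EA than in MS rats and 3 lower in MS+EA than in Control rats.

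Ddit4 encodes REDD1, which acts through the TSC complex to lower mTORC1 activity. It was at 22.8, 21.8 and 46.3 CPM in the Control rats, at 30.6, 20.3 and 19.7 CPM in the MS rats, and at 21.1, 19.2 and 28.5 CPM in the MS+EA rats. Each group thus held 1 rat above the other 2, and the 6 lower rats of the 3 groups lay between 19.2 and 22.8 CPM. Means were 30.3 ± 13.9, 23.6 ± 6.12 and 22.9 ± 4.88 CPM (SD, n = 3 each), and the differences were smaller than the SD of the Control rats. The log2 fold change was -0.36 (SE 0.268, edgeR adjusted p = 0.671) for MS against Control and -0.40 (SE 0.271, adjusted p = 0.407) for MS+EA against Control, and without A6 these became 0.08 and 0.04. For MS+EA against MS it was -0.04 (SE 0.273, edgeR adjusted p = 0.967), with a 95% interval of the fold change from 0.644 to 1.46. Of 10 regulators of mTORC1 that were tested, 0 were called. At an unadjusted p under 0.05, 2 were higher and 1 lower in MS than in Control rats, 0 differed between MS+EA and MS rats, and 2 were higher and 3 lower in MS+EA than in Control rats. Deptor, an inhibitor that binds mTOR, was at 75.7, 89.8 and 88.6 CPM on average, with log2 fold changes of 0.25 (edgeR adjusted p = 0.206) for MS and 0.23 (adjusted p = 0.0811) for MS+EA against Control. Rptor, the scaffold subunit of mTORC1, was at 108, 101 and 95.1 CPM on average, with -0.19 (adjusted p = 0.134) for MS+EA against Control. Ddit4l, the paralogue of Ddit4, was at 1.58, 1.91 and 1.80 CPM on average and was not called.

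The other inputs of Ddit4 were looked at from lists of genes. Of 10 genes of the ATF4 and unfolded protein responses, 0 were called. At an unadjusted p under 0.05, 1 was higher in MS than in Control rats, 3 were lower in MS+EA than in MS rats and 2 lower in MS+EA than in Control rats. Over all genes tested the same shares were 7.06%, 6.42% and 10.6%. Atf4, the transcription factor of amino acid stress, was at 99.7, 95.9 and 104 CPM in the Control rats, 96.7, 103 and 103 CPM in the MS rats and 78.9, 80.4 and 92.0 CPM in the MS+EA rats. The ranges of MS+EA and of either other group did not overlap, but the log2 fold changes of -0.27 against MS and -0.26 against Control had edgeR adjusted p-values of 0.236 and 0.0641. Of all genes tested, 9.6% were lower without overlap in MS+EA than in MS rats and 12.9% in MS+EA than in Control rats. Of 11 hypoxia-induced genes, 0 were called, and 2 were higher and 1 lower at an unadjusted p under 0.05, all between MS+EA and Control rats. The median log2 fold changes were 0.05, 0.05 and 0.11 in the comparisons MS to Control, MS+EA to MS and MS+EA to Control.

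Cdkn1a was the member that differed most between groups. It encodes p21, an inhibitor of cyclin-dependent kinases that p53 and glucocorticoids both induce. It was at 6.21, 7.62 and 18.2 CPM in the Control rats, at 11.02, 10.8 and 10.1 CPM in the MS rats, and at 5.20, 4.82 and 6.12 CPM in the MS+EA rats, from 116, 125 and 292, then 189, 173 and 168, then 75, 72 and 77 counts. The 3 MS rats lay above the 3 MS+EA rats, and A1 and A2 lay between these groups. The highest MS+EA rat, C16, was only just below the lowest Control rat, A1, and that gap was smaller than the SD of the MS+EA rats. Means were 10.7 ± 6.53, 10.6 ± 0.484 and 5.38 ± 0.666 CPM (SD, n = 3 each), in which Control and MS did not differ beyond their spread.

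For Cdkn1a the log2 fold change between MS+EA and MS rats was -0.99 (SE 0.324, unadjusted p = 0.00966, edgeR adjusted p = 0.275), a fold change of 0.505 with a 95% interval from 0.310 to 0.821. It was not called. In this comparison 9.6% of all genes tested had MS+EA rats that all lay below the MS rats, and 6.42% were lower at an unadjusted p under 0.05. Leaving out each of these 6 rats in turn kept the log2 fold change between -1.09 and -0.91. Fitting the 6 rats alone, without the Control rats, gave -0.98 (SE 0.156, edgeR unadjusted p = 0.00011, adjusted p = 0.20), again not called. The SE of 0.324 from the model that included the Control rats was larger. Without A6 the SE of Cdkn1a went from 0.305 to 0.175 for MS against Control and from 0.324 to 0.179 for MS+EA against Control. The part of A6 in the SE for MS+EA against MS was not tested. A filter that kept every gene with a count gave an adjusted p of 0.0382, at which Cdkn1a was called, and DESeq2 gave an unadjusted p of 0.00163 and no adjusted value.

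Against Control rats the log2 fold change of Cdkn1a in MS+EA rats was -0.98 (SE 0.324, edgeR adjusted p = 0.0949), a fold change of 0.506 from 0.311 to 0.823. In this comparison 12.9% of all genes tested had MS+EA rats below the Control rats without overlap. DESeq2 called Cdkn1a here, with an adjusted p of 0.0197, as did edgeR with every gene that had a count, with an adjusted p of 0.00719. Without A6 the value shrank to -0.36 (SE 0.179, edgeR adjusted p = 0.318), so its size rested on that rat. Between MS and Control rats the log2 fold change was 0.00 (SE 0.305, edgeR adjusted p = 0.997), with a 95% interval of the fold change from 0.634 to 1.59. Without A6 it was 0.62 (SE 0.175, unadjusted p = 0.00402, edgeR adjusted p = 0.328), with the MS rats above A1 and A2, and was still not called.

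Lists of other genes were also compared between these groups. Of the lists described next, 0 genes were called between MS+EA and MS rats. Only the summed levels of the excitatory neuron markers did not overlap between MS and MS+EA rats. The 8 tested endothelial markers had summed levels of 282 to 386 CPM in MS, 243 to 314 CPM in MS+EA and 220 to 254 CPM in Control rats, all were detected in every rat, and 3 of 8 were lower in MS+EA than in MS rats at an unadjusted p under 0.05. The 7 markers of pericytes and smooth muscle were summed at 150 to 262 CPM in MS, 134 to 169 CPM in MS+EA and 118 to 131 CPM in Control rats, also all detected, with 1 of 7 lower in MS+EA. Immediate early genes, which follow neuronal activity, were at 574 to 704 CPM summed over 12 genes in MS and 378 to 626 CPM in MS+EA rats. Excitatory neuron markers were summed at 4492 to 4606 CPM in MS and 3860 to 4005 CPM in MS+EA rats, with 3 of 6 lower at an unadjusted p under 0.05. Mature oligodendrocyte markers were summed at 1891 to 2996 CPM in MS and 2104 to 4322 CPM in MS+EA rats, with 9 of 9 higher in value and 2 of 9 at an unadjusted p under 0.05. For 8 of these 9 markers C3 was the highest rat. In A6, where Cdkn1a was highest, the endothelial sum lay between those of A1 and A2. The pericyte and smooth muscle sum of A6, at 131 CPM, lay above those of A1 and A2, at 127 and 118 CPM. The part of these in the level of Cdkn1a was not tested. Of 8 other inhibitors and partners in the cell cycle, 0 were called. At an unadjusted p under 0.05, 2 were higher in MS than in Control rats, 1 was lower in MS+EA than in MS rats and 1 higher in MS+EA than in Control rats. Cdkn1b (p27) was at 30.2, 38.6 and 36.9 CPM on average. Cdkn1c (p57) was at 2.78, 1.77 and 1.74 CPM in the Control rats, 1.87, 7.94 and 2.28 CPM in the MS rats and 4.09, 1.88 and 6.04 CPM in the MS+EA rats, so that 2 of the 3 MS rats lay within the Control range. Ccnd1, the cyclin D1 gene, was at 28.7, 35.3 and 29.2 CPM in the MS rats and 28.8, 20.3 and 21.5 CPM in the MS+EA rats, with a log2 fold change of -0.40 between these groups. Of 12 other targets of p53, 0 were called, their median log2 fold change was -0.02 between MS+EA and MS rats, and 0 were lower at an unadjusted p under 0.05. In value 6 of the 12 were lower and 6 higher in MS+EA than in MS rats. At an unadjusted p under 0.05, 1 was higher in MS than in Control rats, and 2 were higher and 1 lower in MS+EA than in Control rats. The one lower was Sesn2, at 15.5, 13.8 and 12.6 CPM on average in Control, MS and MS+EA rats (log2 fold change -0.29, edgeR adjusted p = 0.189). Bbc3 (2.58, 2.44 and 1.75 CPM), Btg2 (56.5, 53.3 and 35.3 CPM) and Zmat3 (250.7, 247 and 230 CPM) also had their lowest mean in MS+EA rats. Tp53inp1 was at 14.3, 19.2 and 18.7 CPM, Ccng1 at 179, 189 and 213 CPM, and Mdm2, the feedback inhibitor of p53, at 35.4, 35.9 and 39.2 CPM.

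**Figure D2:**
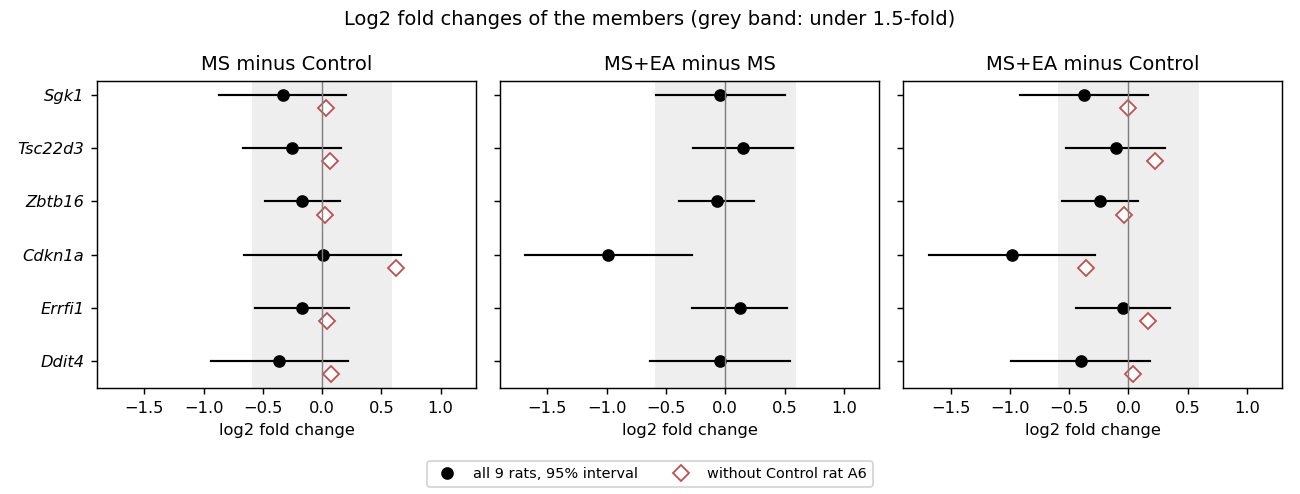
Log2 fold change of each member in the 3 comparisons, with points and 95% intervals from the edgeR fit of all 9 rats and open diamonds from the fit without Control rat A6, and the grey band marking changes under 1.5-fold. Without A6 the MS to Control values of Sgk1, Tsc22d3, Zbtb16, Errfi1 and Ddit4 lie between 0.03 and 0.08, and Cdkn1a keeps a negative value against Control, of -0.36, in MS+EA rats.

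Some rats were high for most members. C16 was the highest of the 3 MS+EA rats for 6 of 6 members, as A6 was among Control rats, and B3 was the highest of the MS rats for 4 of 6. Of all genes tested, 32.9% were highest in A6 within Control, 30.9% in C16 within MS+EA, and 9.12% in both. Of the 35 other glucocorticoid-induced genes, 77.1% were highest in A6 within Control, 65.7% in C16 within MS+EA and 54.3% in both. Expressed as the median log2 deviation of the members from their mean over the 9 rats, A6 was at 0.72 and C16 at 0.22, B3 at 0.07, B4 at -0.03 and A2 at -0.08, and A1, B6, C3 and C10 between -0.29 and -0.20. Each group thus held a rat above 0 on this measure, and the ranges of the groups overlapped.

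**Figure D3:**
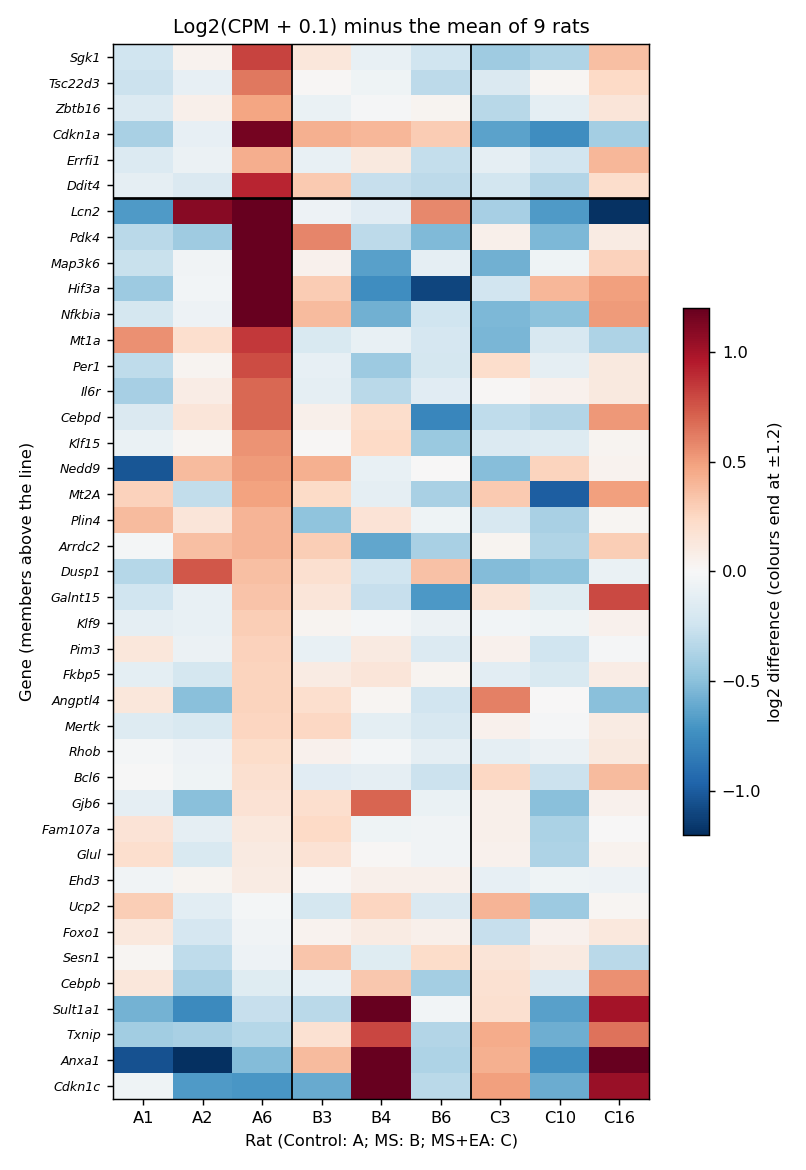
Log2 deviation of each gene from its mean over the 9 rats, with rats in columns by group. The members are in the rows above the line. Below it are the 35 other glucocorticoid-induced genes that were tested, ordered by their value in A6. The column of A6 is high for all 6 members, with a median of 0.72, and the row of Cdkn1a is low in the 3 MS+EA rats.

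Pearson's r of log2 CPM was computed for the 15 pairs of members over the 9 rats. It was positive in all 15 pairs, from 0.44 to 0.92 with a median of 0.74, and 12 had a two-sided exact permutation p under 0.05 after adjustment over the 15 pairs, the lowest being 0.0122. Spearman's rho was between 0.17 and 0.82 with a median of 0.65, and 0 pairs passed after adjustment, the lowest exact permutation p being 0.0691. The closest pair was Sgk1 and Ddit4, with r of 0.92 and rho of 0.82. The lowest r was that of Cdkn1a and Errfi1, at 0.44, and the lowest rho that of Tsc22d3 and Cdkn1a, at 0.17. When the 2 rats farthest from the median of the first gene of a pair were left out, r was between -0.19 and 0.73 with a median of 0.31, and A6 was one of those rats in all 15 pairs. It was lower than over the 9 rats in every pair but Sgk1 and Cdkn1a, where it went from 0.70 to 0.73. Leaving out A6 alone gave r from 0.26 to 0.79 in the 10 pairs without Cdkn1a and from -0.16 to 0.42 in the 5 pairs with Cdkn1a. Without A6, r was lower than over the 9 rats in all 15 pairs, so the strength of these relations rested in part on that rat. Correlating deviations from the group means of all 9 rats, A6 included, gave r from 0.70 to 0.93, with a median of 0.86 in the 5 pairs with Cdkn1a and 0.88 in the other 10. All genes of a rat come from 1 library, and RNA quality per rat was not analysed here.

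**Figure D4:**
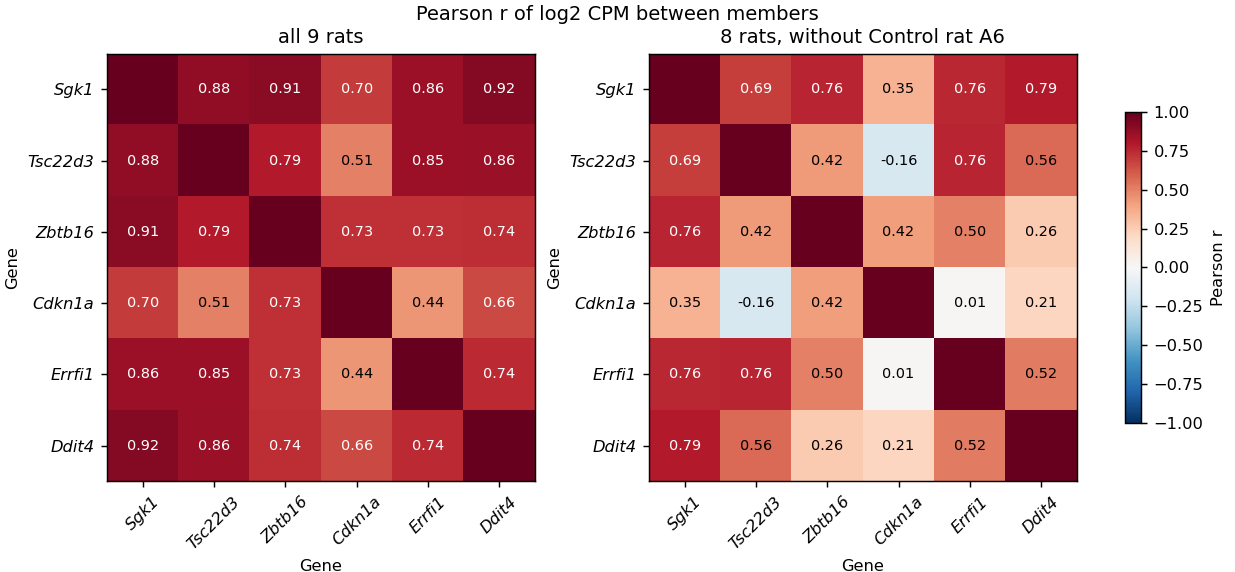
Pearson's r of log2 CPM between each pair of members over all 9 rats (left) and over the 8 rats without Control rat A6 (right), on a colour scale from -1 to 1. Pairs range from 0.44 to 0.92 with A6, and without it the pairs with Cdkn1a range from -0.16 to 0.42.

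The genes most like each member were sought among 15273 other genes by Pearson's r of log2 CPM over the 9 rats, as a description. Sgk1 was nearest to Maff (0.97), Nfkbia (0.95) and Epha2 (0.95), and Ddit4 to Pxn (0.96), Nfkbia (0.96) and Pdk4 (0.96). Nfkbia and Pdk4 are themselves in the list of other glucocorticoid-induced genes, as are Klf9 (0.94) and Rhob (0.91), which with Ephb2 (0.93) were nearest to Tsc22d3. Zbtb16 was nearest to Rnf39 (0.96), Cables1 (0.95) and Pdrg1 (0.93), and Errfi1 to Lonrf3 (0.95), Wfdc1 (0.95) and Tubb6 (0.94). For Cdkn1a the 3 nearest were Brk1 (0.95), LOC103693488 (0.93) and Dio2 (0.93), the last being the enzyme that makes active thyroid hormone in brain. Nfkbia was the only gene among the nearest 3 of more than 1 member. Leaving out A6 lowered r for every one of these neighbours. It was then between 0.77, for Rhob with Tsc22d3, and 0.96, for Rnf39 with Zbtb16.

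The receptors were examined beside the members. Nr3c1, the glucocorticoid receptor, was at 147, 147 and 127 CPM in the Control rats, 168, 177 and 181 CPM in the MS rats and 184, 190 and 178 CPM in the MS+EA rats. The Control rats lay below the other 6 rats. Of all genes tested, 10% were higher without overlap in MS than in Control rats, and 13% in MS+EA than in Control rats. Log2 fold changes were 0.32 (edgeR adjusted p = 0.129) for MS and 0.39 (edgeR adjusted p = 0.0131) for MS+EA against Control. The second passed the adjusted threshold without reaching a 1.5-fold change. In that comparison 910 of 16837 genes passed the adjusted threshold when no fold change was required, 541 of them higher. A6, the rat with the highest members, had the lowest Nr3c1 of the 9. Nr3c2, the mineralocorticoid receptor, which also binds corticosterone, was at 51.7, 55.5 and 52.4 CPM on average with log2 fold changes of 0.10 and -0.08 for MS against Control and MS+EA against MS. Of 12 receptors, cofactors and enzymes of hormone handling that were tested, 0 were called. At an unadjusted p under 0.05, 4 were higher in MS than in Control rats, 2 lower in MS+EA than in MS rats and 3 higher in MS+EA than in Control rats. Abcb1a, a transporter that limits the entry of some corticosteroids into the brain, was at 61.5, 52.7 and 53.5 CPM in Control, 72.9, 76.1 and 65.1 CPM in MS and 70.5, 73.6 and 80.0 CPM in MS+EA rats. Its log2 fold change was 0.42 (edgeR adjusted p = 0.0224) for MS+EA against Control, also under 1.5-fold. Hsd11b1, the enzyme that regenerates corticosterone in cells, was at 29.8, 33.9 and 27.1 CPM on average and fell by 0.32 on the log2 scale from MS to MS+EA with an unadjusted p of 0.0239 and an edgeR adjusted p of 0.329.

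The 35 other glucocorticoid-induced genes that were tested came next. In the comparison MS to Control 0 were called and 3 were higher and 3 lower at an unadjusted p under 0.05, in MS+EA to MS 0 were called and 1 was higher, and in MS+EA to Control 0 were called and 2 were higher and 4 lower. Their median log2 fold changes were -0.09, -0.01 and -0.13, and without A6 they were 0.02, -0.01 and 0.09. DESeq2 and limma-trend also called 0 of these 35 genes, and 0 of the receptors and of the lists for SGK kinases, EGF receptors, ERK feedback, mTORC1, ATF4, hypoxia, the cell cycle and p53. Between MS+EA and MS rats, DESeq2 gave some genes no adjusted p, Cdkn1a and Ddit4 among them. A gene without one could not be called, and how many of the listed genes lacked one was not counted. Fkbp5 was at 34.2, 36.6 and 32.8 CPM on average and had log2 fold changes of 0.10, -0.16 and -0.06. Klf9, a transcription factor induced by the hormone in neurons, had -0.07, 0.01 and -0.06. Per1 was at 117, 83.7 and 104 CPM on average, and its log2 fold change of -0.48 between MS and Control had an edgeR adjusted p of 0.441. The 10 clock genes that peak with Per, Per1 included, had a median of -0.48 between MS and Control and 0.45 between MS+EA and MS. At an unadjusted p under 0.05, 8 of 10 were lower and 7 of 10 higher, against 3.55% and 6.01% of all genes. Of these 10, 0 were called between MS and Control rats. In MS+EA against MS rats 2 were called higher, against 0.0178% of all genes. Without A6 the medians were -0.28 and 0.46, with 4 of 10 lower and 8 of 10 higher at an unadjusted p under 0.05. Mt1a, a metallothionein, was at 2.19, 1.71 and 2.74 CPM in the Control rats, 1.28, 1.38 and 1.26 CPM in the MS rats and 0.97, 1.27 and 1.11 CPM in the MS+EA rats, with -0.98 (edgeR adjusted p = 0.0817) for MS+EA against Control. Anxa1, the anti-inflammatory annexin, was higher in value in the separated rats, with log2 fold changes of 1.64 (edgeR adjusted p = 0.318) for MS and 1.77 (adjusted p = 0.0977) for MS+EA against Control. Its levels of 8.19 CPM in B4 and 10.1 CPM in C16 exceeded those of the other 7 rats, of 1.16 to 4.02 CPM. Dusp1, a phosphatase that is also an immediate early gene, had -0.67 (edgeR adjusted p = 0.102) for MS+EA against Control. Of the 12 immediate early genes, Fosb, Junb and Egr4 were called lower in MS+EA than in Control rats, against 0.119% of all genes tested. Their log2 fold changes were -1.19, -0.90 and -1.04. Without A6, and so with fewer Control rats, Junb alone was called. The median log2 fold change of the 12 was -0.67 with A6 and -0.73 without it. At an unadjusted p under 0.05, 6 of 12 were lower with A6 and 8 of 12 without it.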

How the data were processed

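RNA depleted of rRNA was sequenced from the frontal cortex of 9 rats, 3 per group by the labels. The authors filtered reads with FastQC, mapped them with HISAT2 2.0.4 to Rnor_6.0 (version and build from the submitters' processing notes) and deposited whole-number counts per gene, without normalization. The counting program, its strand setting and its treatment of reads with several locations are not given in the sources used here, so reads of overlapping genes may be shared. Of 37209 genes, 11255 had no count in any rat.

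From these counts, genes were kept by filterByExpr (minimum count 10) in edgeR 4.0.16 (R 4.3.3), scaled by TMM and fitted by the quasi-likelihood method with a mean per group in 1 model of all 9 rats, because the EBSeq program of the study was not installed. Thresholds were an adjusted p under 0.05, as the study used, and a fold change above 1.5. Standard errors were derived from the fold change and its F value, and 95% intervals use the t distribution with the degrees of freedom of the fit. Exact permutation tests of 3 rats against 3 could not give a two-sided p below 0.1. DESeq2 1.42.0, limma 3.58.1, other normalizations and filters and leaving out single rats were alternatives. Correlations used Python 3.11.15 and scipy 1.17.1, and figures matplotlib 3.10.9. The depth of 12479905 to 19007907 counts per rat limits precision for low genes. No sequencing batch was named in the labels.

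Every member was described. From each list the genes past an unadjusted p of 0.05 were named, at most 5 per list, smallest p first, with the receptors Nr3c1 and Nr3c2, the genes Fkbp5, Per1 and Klf9, relatives of members, and the 3 genes nearest to each member. Not all genes of this rule are printed. The values of Nfkbia in A6 and of Mdm2, Bbc3, Btg2 and Zmat3 were chosen after their values were seen. The members and lists were chosen with earlier results of these data known. Promoter windows are RefSeq sequences of GRCr8, matched by symbol.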

Additional observations from a re-analysis of the deposited data

How the results depend on the processing

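The count of members called was 0 under all alternatives to the edgeR fit but these. DESeq2 and a filter keeping every gene with at least 1 count each called 1 member, Cdkn1a, between MS+EA and Control rats, and that filter also called 1 between MS+EA and MS rats. Between MS+EA and MS rats DESeq2 gave Cdkn1a and Ddit4 no adjusted p, so it could call neither. Counts over all genes moved further. Between MS and Control rats, where 4 genes were called, DESeq2 gave 70, the 1-count filter 207, the 6 compared rats alone 11, and leaving out a rat 2 to 22, the last without B3. Between MS+EA and MS rats, where 3 were called, DESeq2 gave 6, bias-adjusted deviances 1, at least 10 counts in every rat 0, the 1-count filter 72, the 6 compared rats 1, and leaving out a rat 1 to 4. Between MS+EA and Control rats, where 230 were called, no fold change threshold gave 910, the 1-count filter 469, and leaving out a rat 71 to 261, the lowest without A1. The causes were not tested.

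Direction changed for the members in 26 of 252 alternative values. The log2 fold change of Cdkn1a between MS and Control, 0.0038, became -0.00055 with RLE size factors, -0.011 with total counts, -0.0035 with DESeq2, -0.0021 with the 1-count filter and -0.28 to 0.62 on leaving out a rat. The other reversals came from leaving out 1 rat. Between MS and Control the range was -0.54 to 0.0323 for Sgk1, -0.42 to 0.0658 for Tsc22d3, -0.31 to 0.0270 for Zbtb16, -0.29 to 0.0395 for Errfi1 and -0.60 to 0.0785 for Ddit4, and in each the positive value was that without A6. Between MS+EA and Control it was -0.28 to 0.22 for Tsc22d3, -0.26 to 0.17 for Errfi1 and -0.59 to 0.0419 for Ddit4. Between MS+EA and MS it was -0.34 to 0.11 for Sgk1, -0.21 to 0.0416 for Zbtb16, -0.0924 to 0.24 for Errfi1 and -0.23 to 0.19 for Ddit4. No paired analysis was possible because the groups hold different animals and share fewer than 2 replicate numbers.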
